A study of Mus musculus with 16 samples.

Results

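The nuclear genes for subunits of the oxidative phosphorylation machinery were followed in mouse pluripotent and trophoblast stem cell colonies grown alone or as assembled embryo-like structures. Members were the gene symbols of the deposited expression table that match the standard names of subunits of complexes I to V (Nduf, Sdh, Uqcr, Cyc1, Cox and Atp5 names). The rule used names only and no expression value. It found 84 of 31663 entries, of which 36 belong to complex I, 4 to complex II, 9 to complex III, 18 to complex IV and 17 to ATP synthase (complex V). Ndufa4 was counted with complex IV, where the protein resides despite its name. Cox4i1 is not analysed here.

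The machinery sits in the inner mitochondrial membrane. Complexes I and II pass electrons from NADH and succinate to ubiquinone, complex III hands them to cytochrome c, complex IV reduces oxygen, and ATP synthase uses the resulting proton gradient to make ATP. Most subunits are encoded in the nucleus, made in the cytosol and imported, whereas a small catalytic set is encoded by mitochondrial DNA, so each complex except complex II draws on both genomes. Pluripotent cells are known for relying strongly on glycolysis, and trophoblast for a more oxidative metabolism.

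RNA was sequenced from single picked colonies or colony parts by Smart-seq2, a full-length cDNA method for small inputs, in 16 libraries, 2 for each of 8 groups. Induced pluripotent stem cells (iPSC) expressing GFP and trophectoderm stem cells (TSC) expressing RFP were grown alone, or were mixed and formed structures whose green iPSC part and red TSC part were separated by hand. All groups shared a serum-containing medium with 12.5 ng/ml FGF4 and 500 ng/ml heparin on 5% Matrigel, and all were collected at day 3. Each of the 4 kinds (iPSC alone, iPSC part, TSC alone, TSC part) was grown without BMP4 or with BMP4 for the last 24 hours, and the labels name no dose. They also do not say whether replicates came from separate cultures, and p-values therefore reflect the spread among libraries alone, which may be technical.

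From the smallest steps between values of low genes, the libraries were estimated to hold 4710000 to 14840000 fragments. The pluripotency factor Pou5f1 stood at 49.5 to 326 FPKM (fragments scaled for transcript length and library size) in the 8 libraries of iPSC origin and at 0.0335 to 13.2 in the 8 of TSC origin. The summed level of 10 pluripotency genes was 432 to 1395 FPKM in iPSC and 204 to 815 in TSC libraries, and that of 14 trophoblast genes 129 to 838 and 554 to 7256. A pair of libraries, called mixed here, stood apart from their replicates: replicate 2 of the iPSC part with BMP4 had 50.4 FPKM of the trophoblast factor Elf5, against 0.193 in replicate 1, and replicate 2 of the TSC part had 22.5 FPKM of Tdgf1, against 0.261. Without BMP4, TSC grown alone had little of the stem cell factors Eomes (0.219 and 0.0844 FPKM) and Elf5 (5.51 and 11.6), while the trophoblast genes Krt18 (2947 and 1705) and Plac1 (745 and 293) were high. The 8 fibroblast markers summed to at most 5.70 FPKM in any library and the 8 primitive endoderm markers to at most 12.9. The 7 mesoderm markers, which include Eomes of the trophoblast list, summed to 43.4 to 562 in iPSC and 1.40 to 51.2 in TSC libraries. Expression was taken from whole colonies, so a smaller number of cells of a type and less RNA per cell cannot be told apart.

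The subunit genes were among the abundant transcripts of these cells. Together they made up 3.83% to 6.34% of all FPKM in a library, and 75 of the 84 stayed above 30 FPKM in all 16 libraries. The most abundant member by mean level was Ndufa7 in complex I (1005 FPKM over all libraries), Sdhd in complex II (245), Uqcr10 in complex III (1506), Cox8a in complex IV (1962) and Atp5b in ATP synthase (1429). Atp5b, the catalytic beta subunit, was also the steadiest of the members detected in every library, with a highest value 1.55 times its lowest (1138 to 1764 FPKM). Of the 84, 19 varied less than 2-fold over the 16 libraries, 53 varied from 2-fold to under 4-fold and 7 by 4-fold or more, and the other 5 were listed at 0 in some library.

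All 5 of those were alternative isoforms of complex IV subunits. Cox8b, known from heart and skeletal muscle, was listed at 0 in all 16 libraries, and Cox6a2, the muscle form of Cox6a, in 15 of 16, with 0.168 FPKM in replicate 2 of TSC alone with BMP4. Both missed the filter for testing (at least 1 FPKM in at least 2 libraries), which left 82 members among 13406 tested genes. Cox8c and Cox7b2, both known mainly from testis, were at or under 1.41 and 2.59 FPKM. Their common counterparts Cox6a1, Cox7b and Cox8a ran at 652 to 1965, 197 to 486 and 1101 to 3014 FPKM. Cox7a1, the muscle form of Cox7a, was detected in every library at a low level, 6.08 to 36.4 FPKM, beside 487 to 1766 for Cox7a2.

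Summed by complex in FPKM, the members separated iPSC grown alone from the iPSC part, except in complex II. These sums were not scaled to the total of a library. FPKM sums of TSC grown alone overlapped those of iPSC grown alone in complexes I, II, IV and V. As percent of all FPKM, only complex II overlapped between these libraries. Complex I then made up 1.26% to 1.51% in TSC and 1.08% to 1.21% in iPSC, and complex IV 1.21% to 1.90% and 0.969% to 1.14%. Complex IV members summed to 8386 and 7294 FPKM in iPSC alone and to 8121 and 9363 there with BMP4. In the iPSC part the sums were 13871 and 14619, and 13800 and 13061 with BMP4, so that all 4 assembled libraries lay above all 4 libraries grown alone. Sums for complexes I, III and V separated these libraries in the same way. Those for complex II overlapped, at 554 to 649 FPKM alone and 584 to 714 assembled. As percent of all FPKM, complexes IV and V still separated these libraries, but complexes I, II and III overlapped. Complex I made up 1.08% to 1.21% alone and 1.14% to 1.32% assembled. For complex III the shares were 0.490% to 0.584% and 0.579% to 0.760%. In TSC the replicates of 3 groups lay far apart. Complex IV summed to 11015 and 14527 FPKM in TSC alone, 13912 and 8612 there with BMP4, 13813 and 13802 in the TSC part, and 11513 and 16313 in the TSC part with BMP4.

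**Figure D1:**
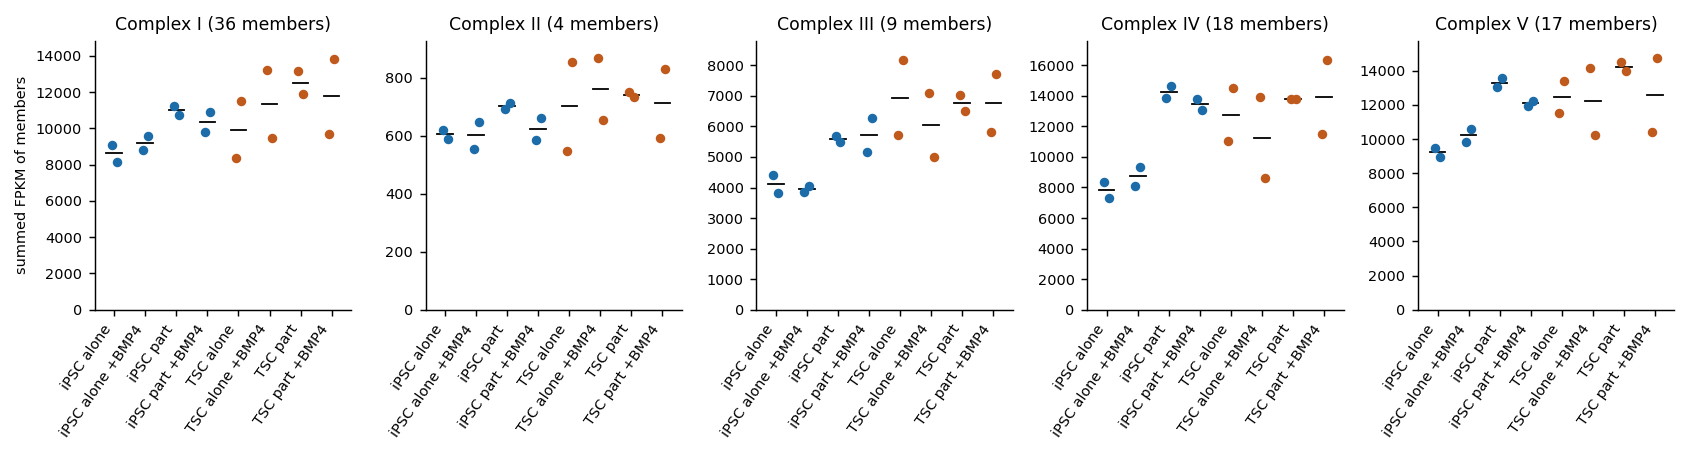
Summed FPKM of the members of each complex in every library, with the 8 groups on the x axis, iPSC origin in blue, TSC origin in orange and group means as bars. The complex IV sums of the 4 iPSC libraries grown alone (7294 to 9363) lie below those of the 4 iPSC part libraries (13061 to 14619), and the TSC groups overlap.

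The first comparison set all TSC groups against all iPSC groups. More members were higher in TSC than in iPSC, over complexes I, II, III and V, but single isoforms of complex IV went strongly the other way. Of the 82 members, 30 were higher in TSC and 8 lower (limma on log2(FPKM + 1), Benjamini-Hochberg adjusted p under 0.05). Members called higher made up 36.6% of those tested, against 24.8% of all genes, and members called lower 9.76%, against 24.0% of all genes. The median member differed by 0.21 on the log2 scale, and the median of all genes by -0.01. Only 6 of the 30 and 2 of the 8 had no overlap between the 8 TSC and the 8 iPSC libraries, which is 7.32% and 2.44% of the members, against 4.17% and 5.17% of all genes. Of the 38 calls, 27 held in all 26 alternative fits, and the 8 became 5 without replicate 2 of TSC alone with BMP4.

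Cox5b, a zinc-binding structural subunit of complex IV, stood highest. It ran from 513 to 1142 FPKM in iPSC libraries, with a median of 748, and from 1167 to 1966 in TSC libraries, with a median of 1689. The groups did not overlap, and the difference was 1.11 ± 0.14 (log2, SE, limma adjusted p = 3.2e-05). Cox6a1, the common form of Cox6a, had a range of 652 to 1133 FPKM in iPSC and 1150 to 1965 in TSC (0.75 ± 0.12, limma adjusted p = 0.000278). Uqcr10, a small subunit of complex III, was about as different as Cox5b (1.10 ± 0.15, limma adjusted p = 7.86e-05), although its ranges overlapped at 680 to 1575 and 1368 to 2776 FPKM.

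In complex I, 13 of 36 members were higher in TSC and 2 lower. Ndufa10, an accessory subunit, ranged from 77.6 to 110 FPKM in iPSC and from 144 to 247 in TSC (0.93 ± 0.11, limma adjusted p = 2.23e-05). Ndufa9, another accessory subunit, differed by 0.72 ± 0.12 and Ndufs7, which carries the last iron-sulfur cluster before ubiquinone, by 0.70 ± 0.11, and neither overlapped between the lineages. Ndufs4 and Ndufs5 were the exceptions. Ndufs5 ran from 245 to 335 FPKM in iPSC and from 144 to 223 in TSC without overlap (-0.65 ± 0.12, limma adjusted p = 0.000812). Ndufs4, whose loss causes a Leigh-like disease in mice, differed by -0.67 ± 0.11 in the same direction, with overlapping ranges of 110 to 229 and 67.2 to 123 FPKM. Ndufab1, the mitochondrial acyl carrier protein, and Ndufv2 gave differences of 0.19 ± 0.14 and 0.05 ± 0.13, which did not pass.

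Complex II is small and wholly nuclear-encoded, and its genes did not move together. Sdhc, a membrane anchor, ranged from 92.5 to 136 FPKM in iPSC and from 148 to 245 in TSC (0.77 ± 0.14, limma adjusted p = 0.000561). Sdha, the flavoprotein that oxidises succinate, differed by 0.45 ± 0.12 and Sdhb, the iron-sulfur subunit, by 0.35 ± 0.13, and both passed. Sdhd, the second anchor, passed in the opposite direction (-0.40 ± 0.15, limma adjusted p = 0.0457), although it forms a dimer with Sdhc in the membrane. That call was lost in 16 of 26 alternative fits and that of Sdhb in 15, with no change of sign.

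Complex IV held the largest differences in both directions. Cox4i2, the form of subunit 4 known from lung and from low oxygen, had 4.68 and 5.35 FPKM in iPSC alone, 7.34 and 10.97 with BMP4, 4.97 and 6.53 in the iPSC part, and 4.65 and 5.99 in the iPSC part with BMP4. In TSC it was listed at 0 in 3 of the 4 libraries grown alone and at 0.332 in the fourth, and it reached 0, 1.54, 0.759 and 1.07 in the assembled parts. All 8 iPSC libraries lay above all 8 TSC libraries (-2.37 ± 0.19, limma adjusted p = 1.24e-06), and the call held in all 26 alternatives. The TSC part libraries with 1.54 and 1.07 FPKM also held Tdgf1, at 22.5 and 4.49 FPKM. The library with 0.759 FPKM had only 0.271 of Tdgf1, and the library grown alone with 0.332 had 0.153. At this depth Cox4i2 rested on a median of about 16.3 estimated fragments per library.

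Cox6b2, the testis form of Cox6b, was also lower in TSC, with 27.3 to 67.2 FPKM in iPSC and 2.46 to 40.4 in TSC (-1.28 ± 0.40, limma adjusted p = 0.0193), while its common counterpart Cox6b1 was higher (0.39 ± 0.14, limma adjusted p = 0.0359). Cox7c differed by -0.67 ± 0.15 and Cox6c2, which is annotated as a pseudogene, by -0.94 ± 0.30. For Cox7a1 the difference was -0.14 ± 0.25 and did not pass. In ATP synthase, Atp5g1, one of the 3 genes for the same mature c-ring protein, was higher in TSC (0.61 ± 0.14, limma adjusted p = 0.00356). Atp5e, the epsilon subunit of the central stalk, was lower (-0.89 ± 0.31, limma adjusted p = 0.0307), with 715 to 1314 FPKM in iPSC and 104 to 1086 in TSC. Its lowest value, 104, came from replicate 1 of the TSC part with BMP4, whose partner had 783, and the call was lost in 11 of 26 alternatives. For Atp5b the difference was 0.14 ± 0.10 and did not pass.

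Fewer members passed within single conditions, where each group had 2 libraries. Between TSC and iPSC grown alone without BMP4, 21 of 82 members were higher in TSC and 2 lower, against 16.2% and 20.2% of all genes. The leading members were Uqcr10 (1678 and 2776 against 821 and 680 FPKM, 1.53 ± 0.30), Cox5b (1.41 ± 0.28), Cox6b1 (1.12 ± 0.28), Atp5g1 (1.05 ± 0.29) and Ndufs8 (1.01 ± 0.35). Cox6a1, Uqcrq, Sdha, Cox8a and Atp5h followed at 0.96 to 0.87, and Cox4i2 (-2.59 ± 0.39) and Ndufs4 (-0.81 ± 0.22) were lower. The count of 21 fell to 2 without replicate 2 of iPSC alone, to 10 without its replicate 1 and to 5 without replicate 2 of TSC alone. It rose to 41 with the length and GC correction, 35 with quantile normalization and 37 with predicted and noncoding names left out of the total. The shares of all genes called in those fits are not given here.

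Between the assembled parts without BMP4, the TSC part had 7 members at a higher and 3 at a lower level, against 11.1% and 5.89% of all genes, so the share of members called was close to the background. Those higher included Ndufa8 (183 and 134 against 80.8 and 61.3 FPKM, 1.14 ± 0.29), Cox5b (0.91 ± 0.28), Ndufa10 (0.88 ± 0.22), Ndufs7 (0.81 ± 0.23), Atp5d (0.80 ± 0.19) and Uqcrc1 (0.74 ± 0.23). Cox4i2 (-2.07 ± 0.39), Cox7c (-1.03 ± 0.30) and Ndufs4 (-1.003 ± 0.22) were lower. After upper quartile rescaling the split was 2 higher and 5 lower. Without replicate 1 of the TSC part no member was higher, and 1 was without either replicate of the iPSC part.

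Assembly was examined next, by setting the iPSC part against iPSC alone and the TSC part against TSC alone, each averaged over the colonies with and without BMP4. Cyc1, Ndufv1, Sdha, Atp5a1, Atp5d and Uqcrc1 fell in both lineages, and Uqcrh, Cox6b1, Cox7a2 and Ndufa4 led the members that rose in the iPSC part. In iPSC, 24 of 82 members rose and 9 fell. The 24 are 29.3% of the members, against 5.95% of all genes that rose, and the 9 are 11.0%, against 20.6% of all genes that fell. The median of all genes was -0.19 in this comparison, and that of the members 0.35. In TSC, 2 members rose and 6 fell, that is 2.44% against 6.97% of all genes and 7.32% against 10.6%. Marker sums differed between these libraries too. Mesoderm markers summed to 43.4 to 350 FPKM in iPSC grown alone and 124 to 562 in the iPSC part, and to 1.40 to 17.4 in TSC grown alone and 14.1 to 51.2 in the TSC part. Pluripotency markers summed to 945 to 1395 in iPSC grown alone and 432 to 968 in the iPSC part. Trophoblast markers summed to 1683 to 7256 in TSC grown alone and 554 to 1847 in the TSC part. For the other lineage's markers, pluripotency sums were 204 to 503 in TSC grown alone and 327 to 815 in the TSC part. Trophoblast sums were 129 to 838 in iPSC grown alone and 191 to 625 in the iPSC part. The part of these marker differences in the member changes was not tested.

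All 6 members that fell in the TSC part were among the 9 that fell in the iPSC part: Cyc1, Ndufv1, Atp5a1, Atp5d, Sdha and Uqcrc1. They were 66.7% of the members that fell in iPSC and 100% of those that fell in TSC. The comparisons share no library, but both parts were separated from assembled structures and include the 2 mixed libraries. Over all genes, 25.7% of the iPSC falls and 49.9% of the TSC falls were shared. None of the 2 members that rose in TSC was among the 24 of iPSC, while over all genes 26.7% and 22.8% of the rises were shared. The 6 cover 4 complexes. Cyc1 is cytochrome c1, which passes electrons to cytochrome c. Ndufv1 holds the NADH-binding site and Sdha oxidises succinate. Atp5a1 and Atp5d are the alpha and delta subunits of the F1 part of ATP synthase, and Uqcrc1 is a core protein of complex III.

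Cyc1 had 338 and 312 FPKM in iPSC alone and 314 and 300 with BMP4, and fell to 155 and 126 in the iPSC part and 160 and 174 in the iPSC part with BMP4. The 4 assembled libraries all lay below the 4 grown alone (-1.04 ± 0.16, limma adjusted p = 0.0012). In TSC alone it had 358 and 309 FPKM, and 190 and 317 with BMP4, against 169 and 143 in the TSC part and 174 and 161 with BMP4. Here too the groups did not overlap (-0.82 ± 0.16, limma adjusted p = 0.00677), although replicate 1 of TSC alone with BMP4, at 190, stood close to the assembled libraries.

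Ndufv1 followed the same course. It had 94.5, 87.0, 108 and 105 FPKM in iPSC grown alone, the last pair with BMP4, and 49.9, 39.6, 56.2 and 62.9 in the iPSC part (-0.92 ± 0.20, limma adjusted p = 0.00514). In TSC grown alone it had 91.6, 168, 67.9 and 104.5 FPKM, against 52.9, 53.8, 62.3 and 59.3 in the TSC part (-0.83 ± 0.20, limma adjusted p = 0.0136). Sdha stood at 58.5 to 91.2 FPKM in the 4 iPSC libraries grown alone and at 35.5 to 49.0 in the 4 of the iPSC part (-0.76 ± 0.17, limma adjusted p = 0.00635), and at 73.3 to 140 and 56.5 to 63.8 in TSC (-0.78 ± 0.17, limma adjusted p = 0.00885). None of these ranges overlapped.

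Atp5a1 had 379, 407, 440 and 450 FPKM in iPSC grown alone and 214, 192, 240 and 242 in the iPSC part (-0.91 ± 0.17, limma adjusted p = 0.00262). In TSC it had 433, 408, 253 and 460 against 200, 219, 209 and 257 (-0.78 ± 0.17, limma adjusted p = 0.00997). The overlap in TSC came from replicate 1 of TSC alone with BMP4, at 253. Atp5d fell by 0.83 ± 0.13 in iPSC and by 0.71 ± 0.13 in TSC on the log2 scale, and Uqcrc1 by 0.49 ± 0.16 and 0.52 ± 0.16. Among the complex I subunits, Ndufa8 (-0.65 ± 0.20) and Ndufs1 (-0.39 ± 0.13) also fell in the iPSC part. The ranges of Ndufa8 overlapped, at 109 to 138 FPKM in iPSC grown alone and 61.3 to 112 in the iPSC part.

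Cyc1, Ndufv1, Sdha, Atp5a1 and Atp5d kept their fall in iPSC in all 26 alternatives. The other members that fell there, among them Uqcrc1, Ndufa8 and Ndufs1, were not called after upper quartile rescaling. In TSC the 5 kept their fall in 24 or 25 of 26. All 5 lost it in a fit of the 4 TSC groups alone, where limma gave no call for any member (adjusted p = 0.0588 to 0.0862), and Ndufv1 also lost it without replicate 2 of TSC alone with BMP4. In this fit 2.30% of all genes fell.

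Some subunits of the same enzymes, such as Uqcrh and Ndufs1, were also called in iPSC. The partners given here were not called in either lineage. Atp5b, which alternates with Atp5a1 around the F1 head, gave a difference of -0.24 ± 0.14 in iPSC and 0.06 ± 0.14 in TSC. Sdhb gave 0.06 ± 0.19 and -0.06 ± 0.19, Uqcrfs1, the Rieske iron-sulfur protein, -0.10 ± 0.16 and 0.02 ± 0.16, and Ndufv2 0.22 ± 0.19 and -0.06 ± 0.19. None of these passed. Ratios between partners do not depend on the scaling of a library, and 4 pairs, chosen after the values were seen and therefore given with no test, show the shift. The ratio of Atp5a1 to Atp5b was 0.252 to 0.324 in the 4 iPSC libraries grown alone and 0.149 to 0.213 in the iPSC part, and 0.184 to 0.348 and 0.134 to 0.152 in TSC. The ratio of Sdha to Sdhb was 0.345 to 0.528 and 0.226 to 0.252 in iPSC, and 0.251 to 0.557 and 0.236 to 0.320 in TSC. For Cyc1 to Uqcrfs1 it was 1.37 to 1.90 and 0.613 to 0.965 in iPSC, and 0.675 to 1.75 and 0.558 to 0.910 in TSC. For Ndufv1 to Ndufv2 it was 0.367 to 0.484 and 0.144 to 0.210 in iPSC, and 0.188 to 0.512 and 0.177 to 0.281 in TSC. In all 4 ratios the lowest library of TSC grown alone was replicate 1 with BMP4.

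**Figure D2:**
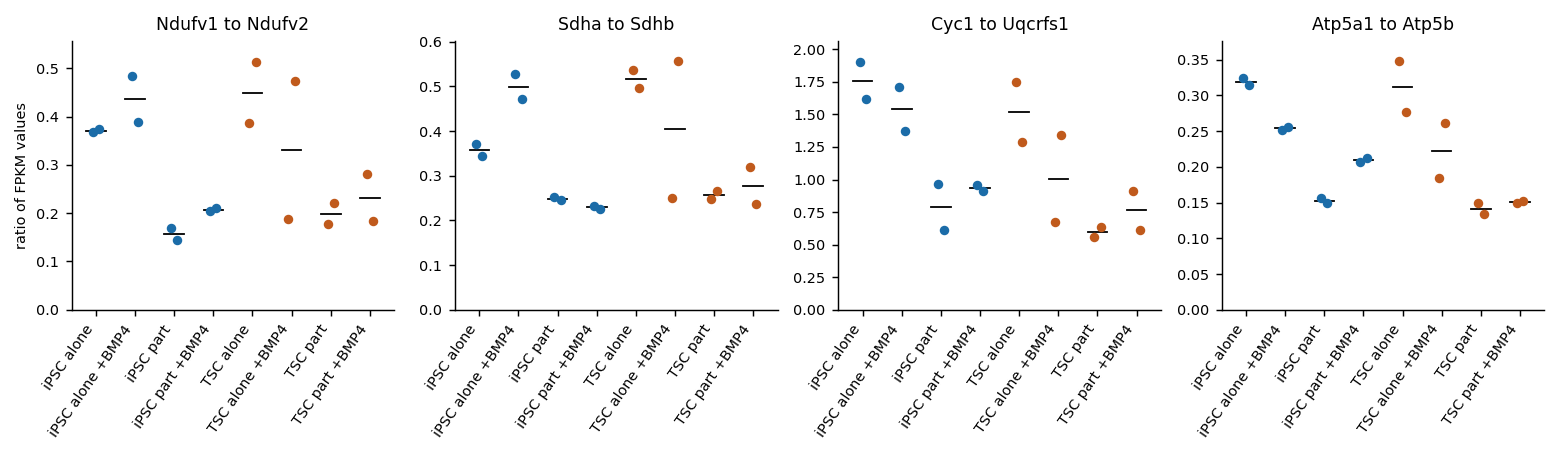
Ratios of FPKM between partner subunits of one enzyme in every library, with the 8 groups on the x axis, iPSC origin in blue, TSC origin in orange and group means as bars. In each panel the iPSC libraries grown alone lie above those of the iPSC part, for example 0.252 to 0.324 against 0.149 to 0.213 for Atp5a1 to Atp5b.

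The members that rose in the iPSC part were mostly small. Complex IV held 10 of the 24, out of 16 tested, ATP synthase 6, complex I 5 and complex III 3, and complex II none. Uqcrh, the hinge protein between cytochrome c1 and cytochrome c, had 564, 458, 369 and 403 FPKM in iPSC grown alone, the last pair with BMP4, and 979, 997, 853 and 764 in the iPSC part (1.01 ± 0.17, limma adjusted p = 0.0015). Its own partner Cyc1 fell in the same libraries. Cox6b1 had 995, 786, 797 and 1050 FPKM against 1754, 1894, 1799 and 1608 (0.97 ± 0.20, limma adjusted p = 0.00461). Ndufa4 had 1092, 842, 933 and 1135 against 1867, 2098, 2037 and 1677 (0.94 ± 0.19, limma adjusted p = 0.0034). In these 3 genes all assembled libraries lay above all libraries grown alone.

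Cox7a2 (0.96 ± 0.23), Cox7b (0.88 ± 0.19), Atp5mpl (0.88 ± 0.20), Uqcrb (0.86 ± 0.21), Atp5j2 (0.84 ± 0.18), Atp5l (0.82 ± 0.18) and Ndufa3 (0.79 ± 0.19) followed without overlap. Atp5g3 and Atp5g1 rose (0.76 ± 0.16 and 0.72 ± 0.20) and so did Ndufs4 (0.67 ± 0.15). Cox8c was among the 24 too, although it was listed at 0 in all 4 libraries grown alone and at 0 to 1.41 FPKM in the iPSC part.

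The 24 members that rose have a median transcript length of 544.5 bases and the 9 that fell one of 1584. Across the 82 members, which share libraries and are not replicates, the Spearman correlation of the change with length was -0.47 in iPSC and -0.485 in TSC. The counts under alternative settings that follow are given without the share of all genes called in the same fit. When the dependence of each library on length and GC content was removed over all genes, 19 members rose and 9 fell in iPSC. Of these, 18 and 8 were among the original calls. In TSC 2 rose and 6 fell. Upper quartile rescaling brought the all-gene median from -0.19 to 0.04, and the split in iPSC was then 49 higher and 5 lower, including all 24 and 5 of the 9. Without the 2 mixed libraries it was 13 and 10, and leaving out replicate 2 of iPSC alone, replicate 1 of iPSC alone with BMP4 or replicate 2 of the iPSC part each gave 13 members higher. The lowest count with 1 library left out was 5 for members lower, which was reached without replicate 1 of iPSC alone and without 4 other libraries.

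In TSC, Atp5g2, another gene for the c-ring protein, had 488 and 562 FPKM alone and 1389 and 1260 in the TSC part, and with BMP4 1273 and 706 alone and 909 and 1576 in the TSC part. The rise over both was 0.84 ± 0.21 (limma adjusted p = 0.0178), with overlapping ranges. Ndufa2 rose by 0.60 ± 0.19 (limma adjusted p = 0.0423). Both calls were lost without replicate 2 of TSC alone with BMP4 and without replicate 2 of the TSC part with BMP4. With other libraries left out the count of 2 ranged up to 11, reached without replicate 1 of TSC alone with BMP4. Upper quartile rescaling gave 10 higher and 5 lower, and quantile normalization 5 higher and 8 lower.

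Although far more members rose in iPSC than in TSC, the difference between the lineages was not shown. In the direct test of one assembly effect against the other, 0 of 82 members passed in either direction by limma, with 7 at an unadjusted p under 0.05. Over all genes 2.94% had a higher and 1.22% a lower effect in TSC.

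**Figure D3:**
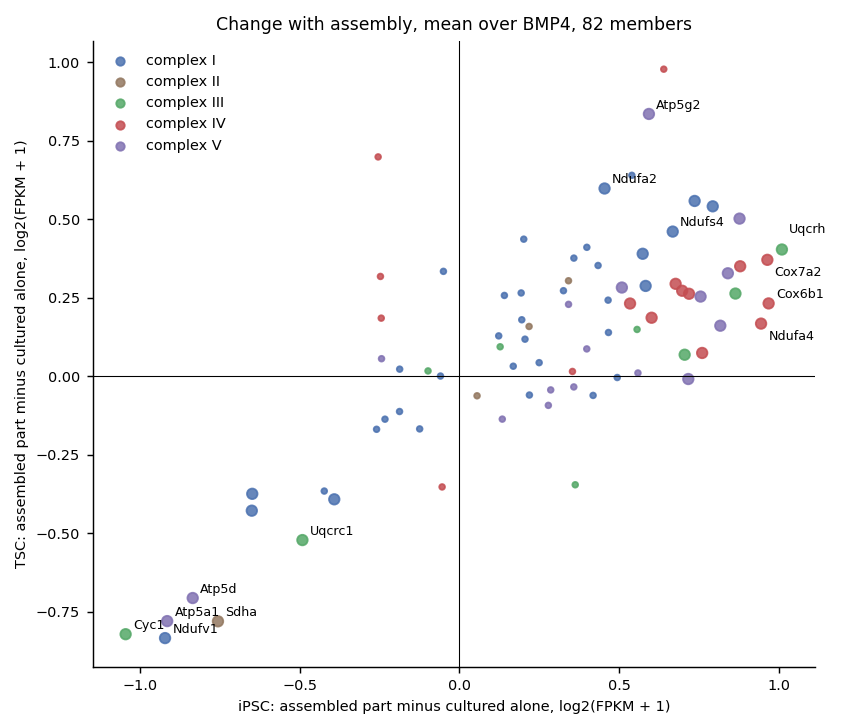
Change with assembly of the 82 tested members in iPSC (x axis) and TSC (y axis), as log2 differences averaged over BMP4, coloured by complex, with larger points for members past the threshold in either lineage. Cyc1, Ndufv1, Atp5a1, Atp5d and Sdha lie apart at the lower left, from -1.04 to -0.76 in iPSC, and the small subunits such as Uqcrh and Cox6b1 spread to the right.

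The same comparisons without BMP4 had only 2 libraries a group. In iPSC, 8 members rose and 4 fell, against 2.08% and 9.74% of all genes. Those that rose were Ndufa4, Cox6b1, Atp5g3, Uqcrh, Atp5mpl, Atp5j2, Atp5l and Ndufs4 (1.04 to 0.82), and those that fell Cyc1 (-1.21 ± 0.23), Ndufv1, Atp5a1 and Atp5d. The count of 8 became 0 without either replicate of iPSC alone or without replicate 2 of the iPSC part, and the 4 became 0 without the same libraries. Upper quartile rescaling gave 30 higher and 1 lower, and leaving predicted and noncoding names out of the total 9 and 8. In TSC, 4 rose and 5 fell, against 9.01% and 10.2% of all genes. Atp5g2 (1.34 ± 0.29), Ndufa2 (1.14 ± 0.26), Ndufc2 (0.77 ± 0.21) and Ndufc1 (0.73 ± 0.23) rose, and Ndufv1 (-1.20 ± 0.28), Cyc1, Atp5a1, Sdha and Atp5d fell. The 5 became 0 without replicate 2 of the TSC part, without the 2 mixed libraries 2 rose and 0 fell, and upper quartile rescaling, quantile normalization and the smaller total gave 7 and 5, 4 and 11, and 3 and 10.

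Regulators of mitochondrial biogenesis moved in both directions with assembly. NRF1 and the GABP factors, of which GABPA is the DNA-binding ETS-family subunit, are textbook activators of nuclear respiratory genes. Nrf1 had 40.7 to 51.4 FPKM in iPSC grown alone and 10.3 to 20.3 in the iPSC part (-1.60 ± 0.20, limma adjusted p = 0.000527), and 19.5 to 45.6 and 15.0 to 17.4 in TSC (-0.84 ± 0.20, limma adjusted p = 0.0137). Gabpa fell by 1.04 ± 0.16 and 0.78 ± 0.16, Gabpb1 by 1.05 ± 0.17 and 0.80 ± 0.17, and Tfam, the packaging and transcription factor of mitochondrial DNA, by 1.05 ± 0.17 and 0.68 ± 0.17. Of 19 tested regulators, 2 rose and 5 fell in iPSC, and 2 rose and 6 fell in TSC. The falls were 26.3% and 31.6% of the list, against 20.6% and 10.6% of all genes, and the rises 10.5% in each, against 5.95% and 6.97%. Those that rose were Yy1 (1.17 ± 0.22) and Esrra (0.58 ± 0.20) in iPSC, and Esrrb (2.60 ± 0.48) and Polrmt (0.66 ± 0.18) in TSC. Esrra was low, with means without BMP4 of 0.36 FPKM in iPSC alone and 0.92 in the iPSC part. The coactivator Ppargc1a stayed at or under 0.355 FPKM in all libraries.

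Promoter windows are shown for 2 members that fell and 2 that rose in the iPSC part, because each carries a short motif of one of these factors. The windows are RefSeq sequence on GRCm38.p6, a later build than the mm9 named for the files, and run from 250 bases before to 50 bases after the transcript start, 5′ to 3′ on the gene's strand. Capitals mark the NRF1 core GCGCATGC or the ETS motif CCGGAAG on either strand. The Uqcrc1 window is chr9:108936398-108936697 (plus strand), that of Ndufa8 chr2:36049289-36049588 (minus), that of Uqcrh chr4:116075021-116075320 (minus) and that of Cox6b1 chr7:30626065-30626364 (minus).
Uqcrc1: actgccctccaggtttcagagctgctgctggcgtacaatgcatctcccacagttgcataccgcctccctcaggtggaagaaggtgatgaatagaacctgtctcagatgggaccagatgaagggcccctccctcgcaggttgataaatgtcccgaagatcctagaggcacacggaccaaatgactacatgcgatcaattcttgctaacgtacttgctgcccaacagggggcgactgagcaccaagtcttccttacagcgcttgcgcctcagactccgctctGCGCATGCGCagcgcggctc
Ndufa8: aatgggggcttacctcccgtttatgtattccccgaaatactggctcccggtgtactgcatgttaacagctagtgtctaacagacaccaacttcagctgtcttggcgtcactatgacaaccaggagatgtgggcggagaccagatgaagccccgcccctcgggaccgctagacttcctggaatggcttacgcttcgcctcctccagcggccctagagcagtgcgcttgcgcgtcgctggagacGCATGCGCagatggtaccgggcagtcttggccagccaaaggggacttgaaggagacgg
Uqcrh: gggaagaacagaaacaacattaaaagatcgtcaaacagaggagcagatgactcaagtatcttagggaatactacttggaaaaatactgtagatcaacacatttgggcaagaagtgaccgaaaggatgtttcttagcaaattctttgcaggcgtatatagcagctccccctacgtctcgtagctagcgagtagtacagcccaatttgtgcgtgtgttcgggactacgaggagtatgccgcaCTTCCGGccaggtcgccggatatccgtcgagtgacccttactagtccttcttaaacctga
Cox6b1: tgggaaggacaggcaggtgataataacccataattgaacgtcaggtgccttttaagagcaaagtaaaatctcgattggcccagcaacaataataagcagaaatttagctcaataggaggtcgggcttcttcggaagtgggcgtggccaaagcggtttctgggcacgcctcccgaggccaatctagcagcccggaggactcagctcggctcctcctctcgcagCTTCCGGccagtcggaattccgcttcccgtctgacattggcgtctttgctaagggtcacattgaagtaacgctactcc

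In Uqcrc1 the NRF1 core occurs on both strands in overlapping positions, 31 and 33 bases after the start, and in Ndufa8 on the antisense strand, 8 bases before it. In Uqcrh and Cox6b1 the ETS motif lies on the antisense strand, 10 and 28 bases before the start. Windows were found for 66 of the 84 members. The NRF1 core occurred in 10 of them (15.2%) and in 3.05% of all 27025 symbols with a window, the ETS motif in 16 (24.2%) against 9.93%, and the YY1 motif AAGATGGCG in 7 (10.6%) against 1.64%. Among members that rose in the iPSC part, 4 of 20 windows held the NRF1 core and 6 the ETS motif. Among those that fell, 2 of 5 held the NRF1 core and 0 the ETS motif, and among members not called the counts were 4 and 10 of 40. A match is a stretch of letters and does not show binding.

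Other mitochondrial gene groups, from lists chosen with earlier results known, are given by their counts, to be read against the shares of all genes that were higher (24.8%) or lower (24.0%) by lineage, rose (5.95%) or fell (20.6%) with assembly in iPSC, and rose (6.97%) or fell (10.6%) in TSC. Of 17 enzymes of the tricarboxylic acid cycle, 10 were higher in TSC than in iPSC and 1 lower, led by Idh2 (1.62 ± 0.15), Ogdh, Fh1 and Suclg2. With assembly 0 rose and 4 fell in iPSC (Dlat, Pdha1 and Dlst among them, -1.03 to -0.67), and 0 rose and 5 fell in TSC. The falls were 23.5% and 29.4% of the list. Of 18 import and carrier genes 0 rose in either lineage, and 5 fell in iPSC (27.8%) and 6 in TSC (33.3%). The largest falls were those of Hspa9, the import motor (-1.36 ± 0.22 and -0.84 ± 0.22), and Tomm40, the outer membrane pore (-1.19 ± 0.21 and -0.82 ± 0.21). Phb2 and Timm44 fell in both. Of 15 complex I assembly factors, 1 rose and 5 fell in iPSC (33.3%), and 2 rose and 1 fell in TSC (6.67%). Of 13 assembly factors of complexes II, III and V, 0 rose in either lineage, and 2 fell in iPSC (15.4%) and 3 in TSC (23.1%). Among 19 glycolytic genes 2 rose and 12 fell (63.2%) in the iPSC part (Pfkl, Pdk1, Pkm and Hk2 moved most, Hk2 upward), while in TSC 3 rose and 1 fell.

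Respiratory proteins outside the naming rule behaved unevenly. The testis cytochrome c Cyct was lower in TSC (4.99 to 16.3 FPKM in iPSC and 0 to 3.30 in TSC, -2.96 ± 0.30), as were Ndufa4l2 (-1.69 ± 0.30), a paralog of Ndufa4, and Atpif1, the inhibitor of ATP synthase (-1.07 ± 0.14). Somatic Cycs was higher in TSC (0.43 ± 0.14) and rose in the iPSC part (0.63 ± 0.19), as did Usmg5, a small subunit of ATP synthase (0.75 ± 0.19).

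Few members were called for BMP4. In iPSC alone 0 of 82 members passed in either direction by limma, against 0.0224% of all genes higher and 0.0373% lower, with 1 member at an unadjusted p under 0.05. In the iPSC part 0 members passed, against 0.00746% and 0.00%, and 0 had an unadjusted p under 0.05. In the TSC part 0 members passed, against 0.373% and 0.127%, and 3 had an unadjusted p under 0.05. For the mean of the 4 BMP4 effects the count was 0 against 1.10% and 0.298%, with 2 members at an unadjusted p under 0.05. With calls this rare over all genes, the lack of calls does not show that the members stayed the same.

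Only TSC grown alone had members called for BMP4, 2 higher and 1 lower, against 6.39% and 5.74% of all genes. Ndufa2, an accessory subunit of complex I, had 370 and 615 FPKM without and 1077 and 801 with BMP4 (0.96 ± 0.26, limma adjusted p = 0.0323). Ndufc2, a membrane-arm subunit, had 248 and 305 against 560 and 412 (0.80 ± 0.21, limma adjusted p = 0.0281). Atp5d had 750 and 720 against 410 and 530 (-0.66 ± 0.19, limma adjusted p = 0.0389). Each of these was without overlap, as was every member call between groups of 2 libraries, so this adds no separate support. The calls held in 18, 21 and 14 of 26 alternatives. Without replicate 1 of either TSC group 0 members were higher, without replicate 2 of TSC alone 4 were, and without replicate 2 of TSC alone with BMP4 5 were higher and 3 lower. Atp5d was not called without either replicate of TSC alone, without replicate 1 of TSC alone with BMP4 or without any 1 of 6 iPSC libraries. Quantile normalization gave 3 higher and 8 lower, and the smaller total 2 and 5.

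The 13 subunits encoded by mitochondrial DNA, which join the nuclear members in complexes I, III, IV and V, ranged from 4352 to 43407 FPKM in sum, and the 84 nuclear members from 28799 to 53421. The mitochondrial summed level was 40943 and 33094 FPKM in TSC alone and 10500 and 20573 there with BMP4. It was 4567 and 4352 in the TSC part and 43407 and 29581 in the TSC part with BMP4. In iPSC it was 22591 and 22750 alone, 11582 and 17329 with BMP4, 15708 and 4856 in the iPSC part and 10312 and 10619 there with BMP4. Their ratio to the summed nuclear members therefore ran from 0.0926 in a TSC part library to 1.14 in a TSC part library with BMP4.

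In the TSC part, 8 of the 13 rose with BMP4, against 0 of the 82 nuclear members and 0.373% of all genes. The gene mt-Nd1, a ubiquinone-module subunit of complex I, had 1251 and 771 FPKM without and 11877 and 9075 with BMP4 (3.40 ± 0.46, limma adjusted p = 0.00859). Next came mt-Atp6 (3.24 ± 0.44), mt-Co2 (3.23 ± 0.47) and mt-Nd4 (3.11 ± 0.55). In TSC alone 2 of 13 fell with BMP4, mt-Cytb (-1.73 ± 0.51) and mt-Atp6 (-1.50 ± 0.44), and 0 rose. Over all genes 5.74% fell and 6.39% rose there. The difference between these BMP4 effects was tested once the values were known. The effect was higher in the TSC part for 9 of the 13 genes, against 0 of 82 nuclear members and 0.738% of all genes higher and 1.01% lower. The 8 rises became 1 without either replicate of the TSC part, 0 without replicate 1 of the TSC part with BMP4, 1 without the 2 mixed libraries and 0 in a fit of only the 2 groups compared. Over both lineages, mt-Nd1, mt-Nd2 and mt-Nd3 were higher in TSC (0.90 to 1.19). They are 23.1% of the 13, close to the 24.8% of all genes. With assembly averaged over BMP4, mt-Co1, mt-Co3 and mt-Nd1 fell in iPSC, and mt-Cytb, mt-Co3 and mt-Atp6 fell in TSC. That is 23.1% in each, against 20.6% of all genes in iPSC and 10.6% in TSC. Without BMP4, 12 of the 13 fell in the TSC part, where 5 of 82 nuclear members and 10.2% of all genes fell. These falls use the same 2 TSC part libraries, 1 of them mixed, as the rises with BMP4 and the difference between BMP4 effects. They add no separate support.

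**Figure D4:**
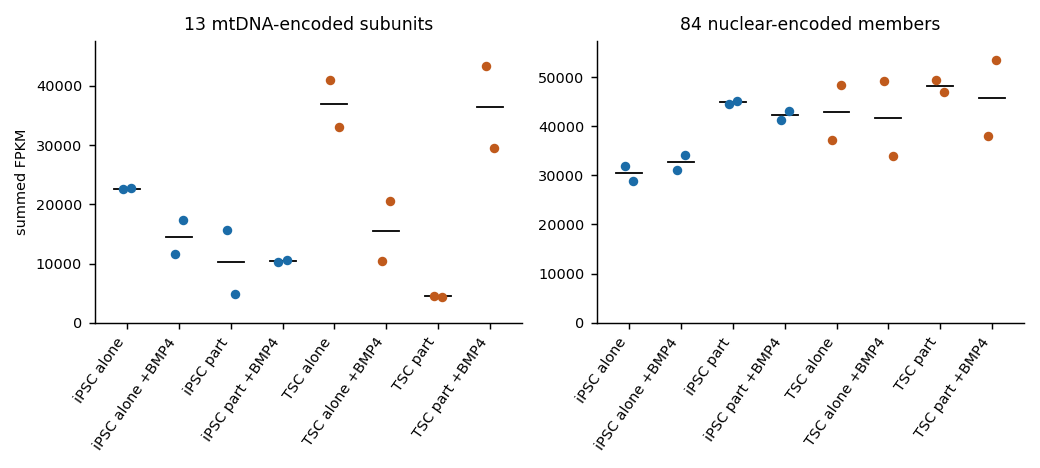
Summed FPKM of the 13 subunits encoded by mitochondrial DNA (left) and of the 84 nuclear-encoded members (right) in every library, with the 8 groups on the x axis, iPSC origin in blue, TSC origin in orange and group means as bars. The mitochondrial sums in the TSC part go from 4352 and 4567 without to 29581 and 43407 with BMP4, while the nuclear sums of these 4 libraries span 38037 to 53421.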

How the data were processed

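Expression values are FPKM as deposited by the authors, in 1 table with a column per library and all columns used (0 left out). CASAVA, TopHat2 and the builds mm9 and hg19 are named, with no roles, per the submitters' processing notes. The sources used here name neither the program that computed FPKM nor its annotation, and reads shared with paralogs, processed pseudogenes or overlapping genes may be split in unknown ways. FPKM values are not counts, and the number of fragments was only estimated, from the value of 1 fragment in single-transcript genes of 1500 to 6000 bases. No counting intervals are therefore given. FPKM also is relative, so a change in a few abundant transcripts shifts all other values.

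Tested were the 13406 genes that reached 1 FPKM in 2 or more of the 16 libraries. Values were taken as log2(FPKM + 1), a scale that understates changes of low genes, and fitted as 8 group means with limma 3.58.1 in R 4.3.3 (trend), two-sided, with Benjamini-Hochberg adjustment over all tested genes of a comparison and a threshold of 0.05. Changes are differences of log2 values ± SE. Comparisons were lineage, assembly, BMP4 and their differences. Transcript length and GC content came from GENCODE by symbol for 99.8% of tested genes, and promoters from RefSeq. Values of some single genes are not reported here. The members and gene lists were chosen with earlier results of these data known.

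Members were named when called without overlap of libraries and with at least 5 FPKM in the higher group, up to 10 per direction and comparison. A set of catalytic and isoform genes and the most abundant member per complex were named whatever their result, with up to 4 called genes per list. Other members and genes, such as Uqcr10, Cox7c, Cox6c2, Ndufv2 and those given as partners or by complex, were chosen after their values were seen. Alternative settings were upper quartile rescaling, quantile normalization, a pseudocount of 0.1, testing without the filter, library quality weights, a replicate block, a length and GC correction, fitting only the compared groups, leaving out the 2 mixed libraries, and leaving out each library in turn. A rescaling without predicted and noncoding names was added after seeing the data, which makes 26 in all. Figures were drawn with matplotlib 3.10.9 (pandas 2.3.3, numpy 2.4.6, Python 3.11.15).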

Additional observations from a re-analysis of the deposited data

Results flagged for a closer look

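The effect of BMP4 on subunits encoded by mitochondrial DNA differed between the TSC part and TSC grown alone, by a test of the difference itself that was added after the values were seen (limma, adjusted p = 0.00487 to 0.0281, 2 libraries in each of 4 groups). On the log2 scale the effect was higher in the TSC part by 4.75 for mt-Nd1, 4.75 for mt-Nd4, 4.74 for mt-Atp6, 4.46 for mt-Cytb, 4.28 for mt-Nd4l, 4.23 for mt-Co2, 4.004 for mt-Co3, 3.86 for mt-Nd2 and 3.24 for mt-Nd3. None of the 82 tested nuclear members passed this test by limma, with 5 at an unadjusted p under 0.05. The 9 genes became 1 in a fit of these 4 groups alone, 3 with library quality weights and 4 to 11 with 1 library left out. The count was 4 without replicate 1 of the TSC part or of TSC alone with BMP4, and 5 without replicate 1 of the TSC part with BMP4. The libraries of TSC alone with BMP4 differed among themselves, with 1.15% and 2.90% of all FPKM in these 13 genes. The cause was not tested.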

How the results depend on the processing

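Over 26 alternatives, 641 of 780 counts of called genes stayed within 1.5 times their value, and of 4732 single calls 3832 were kept and 0 reversed in sign. With 2 libraries a group, counts of calls moved readily, and the cause of each move was not tested unless fewer libraries or groups entered. Members are given as higher and lower. Most counts stand without the share of all genes called in the same fit. They therefore do not show whether members moved more than other genes.

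Without the filter, members lower by lineage numbered 4, members higher with assembly 4 in iPSC without BMP4 and 1 in TSC averaged over BMP4, and members higher with BMP4 in TSC alone 1. With the length and GC correction, lineage gave 46 higher, TSC against iPSC alone 41 higher, the parts 14 higher, assembly without BMP4 3 higher in iPSC and 2 in TSC, the test between the assembly effects 1 lower, and BMP4 in TSC alone 1 higher and 3 lower. With quantile normalization, TSC against iPSC alone gave 35 higher and 6 lower, assembly 5 higher in iPSC and 11 lower in TSC without BMP4 and 5 higher in TSC averaged over BMP4, the test between the assembly effects 2 lower, and BMP4 in TSC alone 8 lower. With upper quartile rescaling the parts gave 2 higher and 5 lower, assembly without BMP4 30 higher and 1 lower in iPSC and 7 higher in TSC, and averaged over BMP4 49 and 5 in iPSC and 10 higher in TSC.

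Library quality weights came out equal within each group (0.514 for both libraries of TSC alone), so they weighed groups and not single libraries. With these weights the parts gave 11 higher and 5 lower, and BMP4 in TSC alone 0 and 0. Assembly without BMP4 then gave 35 higher and 8 lower in iPSC and 2 higher in TSC, and averaged over BMP4 1 higher in TSC. Fitting only the groups compared, which lowers the residual degrees of freedom, gave 28 higher in iPSC without BMP4, 37 higher averaged over BMP4, and 0 and 0 for both TSC assembly comparisons and for BMP4 in TSC alone. Without the 2 mixed libraries, assembly without BMP4 gave 2 higher and 0 lower in TSC, averaged over BMP4 13 higher in iPSC and 1 in TSC, and BMP4 in TSC alone 1 higher. Leaving predicted and noncoding names out of the total gave 37 higher and 4 lower for TSC against iPSC alone, 13 higher for the parts, 8 lower in iPSC and 10 lower in TSC with assembly without BMP4, 2 lower between the assembly effects, and 5 lower for BMP4 in TSC alone.

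With 1 library left out, in fits where a lone library is assumed to vary like the other groups, the ranges were 24 to 39 higher and 5 to 9 lower for lineage, 2 to 24 and 1 to 5 for TSC against iPSC alone, and 0 to 9 and 1 to 4 for the parts. For assembly without BMP4 they were 0 to 19 and 0 to 4 in iPSC and 1 to 6 and 0 to 6 in TSC, and averaged over BMP4 13 to 29 and 5 to 10 in iPSC and 0 to 11 and 4 to 7 in TSC. The test between assembly effects gave 0 to 4 lower. BMP4 in TSC alone gave 0 to 5 and 0 to 3, and BMP4 in the TSC part, its mean and its difference between TSC settings each gave 0 to 1 lower.

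With the replicate number as a replicate block, assembly in iPSC without BMP4 gave 5 higher, assembly in TSC averaged over BMP4 1 higher and BMP4 in TSC alone 0 lower, and no other count of members moved by over 1.5 times. The numbers did not pair the libraries: over 28 pairs of groups the correlations of deviations ran from -0.185 to 0.119, with 2 above 0.1. Low members such as Cox4i2, Cox8c and Cox7b2 are limited by depth, with few estimated fragments a library.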
